A study of Rattus norvegicus with 38 samples.

Results

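rno-miR-103 and rno-miR-107 are 2 of the 350 rat miRNAs on the array of this study. They were chosen by name, with every probe that carries either name, which gave 4 of the 938 probes on each of 38 arrays. The study profiled miRNAs in the livers of male Fischer (F344) rats, received at 8 weeks of age and fed a chemical in powdered diet for 90 days. RNA from whole liver was labelled with 1 dye, and each liver sample was read on 1 Agilent miRNA array. The tested diets held Diethylthiourea at 2500 ppm (4 samples), Benzophenone at 1250 ppm (5 samples), Phenobarbital at 1000 ppm (3 samples), Diethylhexylphthalate at 12000 ppm (4 samples), Monuron at 1500 ppm (4 samples), Chlorendic Acid at 1250 ppm (4 samples), Methapyrilene HCl at 250 ppm (4 samples) or 2-acetylaminofluorene at 40 ppm (5 samples), and 5 samples came from rats on control diet. Each chemical had 1 dose, chosen as tumour-causing or as the highest tolerated. The labels do not say that every sample came from a rat of its own, so p-values measure the spread between these samples, part of which may be technical.

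miRNAs guide Argonaute proteins to matching sites in mRNAs, mainly through the seed (bases 2 to 8 from the 5′ end), and lower the output of those mRNAs. The genes of miR-103 and miR-107 lie in introns of pantothenate kinase genes, whose enzymes catalyse the first committed step in making coenzyme A, the carrier of acyl groups in fatty acid oxidation and synthesis. In mice both miRNAs are known to lower insulin sensitivity, in liver among other tissues, and to target caveolin-1. Diethylhexylphthalate is a plasticizer whose metabolites activate the nuclear receptor PPARα, a regulator of fatty acid oxidation in rodent liver, and Monuron is a phenylurea herbicide.

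The mature sequences are shown first because they are nearly the same, which bears on what each probe can tell apart. They are RefSeq's (build GRCr8), written 5′ to 3′ with the seed in capitals, and the array's names, which carry no arm, were matched to the entries of the -3p arm (2 of 2 members).
rno-miR-103-3p: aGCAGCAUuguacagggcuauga
rno-miR-107-3p: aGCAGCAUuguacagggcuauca
Counted from 1 at the 5′ end, with the base of miR-103 first, the only substitution between them is G22C. The other 22 of 23 positions are identical, and the seed is shared. Among 693 mature rat miRNAs in the RefSeq table, 2 hold this seed, and they are this pair. Sequences of the array's probes were not used here, and how far a probe named for one miRNA bound the other was not tested.

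The hairpins are shown because mature miR-103 can come from either of 2 loci and miR-107 from 1 locus, each inside a different pantothenate kinase gene. The mature strand is in capitals.
hairpin of Mir103a1: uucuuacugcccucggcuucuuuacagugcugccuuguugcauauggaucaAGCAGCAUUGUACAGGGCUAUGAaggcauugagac
hairpin of Mir103a2: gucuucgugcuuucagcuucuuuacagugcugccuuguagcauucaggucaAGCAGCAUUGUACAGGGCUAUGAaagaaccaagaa
hairpin of Mir107: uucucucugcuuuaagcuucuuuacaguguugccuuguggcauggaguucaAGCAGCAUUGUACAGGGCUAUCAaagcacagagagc
In GRCr8, Mir103a1 is at chr10:20748474-20748559 on the plus strand, within the span of Pank3. Mir103a2 is at chr3:138963227-138963312 on the plus strand, within the span of Pank2. Mir107 is at chr1:241750418-241750504 on the minus strand, within the span of Pank1. Each hairpin lies on the same strand as its pantothenate kinase gene. Outside the mature strand the hairpins diverge, and the 3 pairs were identical at 69 of 86, 70 of 87 and 71 of 87 aligned positions. Both Mir103a loci give the same mature miR-103, so its signal does not tell those loci apart.

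Each member had 2 probes, printed in 10 spots a probe, and 8 to 10 spots per probe and array were used after spots marked as outliers were left out. All 4 probes were detected on 38 of 38 arrays. Of 760 spots for each miRNA, 4 of miR-103 and 2 of miR-107 were not well above background, and 0 were saturated. The main probes, the brighter of each pair, were A_26_P00001304 for miR-103, with mean signals of 110 to 337 over the arrays, and A_26_P00001308 for miR-107, with 210 to 903. Between spots of 1 array the log2 signal had a median SD of 0.116 and 0.0737 for these probes, and between samples of 1 diet the log2 level had an SD of 0.128 and 0.157. A level below is the log2 ratio of a probe's signal to the 75th percentile of the 137 probes detected on every array. It is a relative amount in liver RNA, and in bulk tissue a change in cell make-up and a change in RNA per cell cannot be told apart.

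The series as a whole bears on these values as follows. Arrays detected 90 to 141 of 350 miRNAs, and the 75th percentile was 424 to 1086 signal units. The markers were those of liver: all 4 hepatocyte miRNAs (miR-122, miR-192, miR-194 and miR-101a) were detected on all 38 arrays, while of the muscle and brain miRNAs miR-1, miR-133a, miR-124 and miR-9 were detected on 0 arrays and miR-206 on 1. The arrays lay on 6 slides, and Monuron and Methapyrilene HCl shared no slide with control. A fit in limma across all 38 arrays tested 129 miRNAs, those with signal on each array of some diet group, with Benjamini-Hochberg adjustment over the 129 in each comparison and a threshold of 0.05. Where groups are said below not to overlap, the share of the 129 for which this also held was not counted.

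Both miRNAs rose with Diethylhexylphthalate, miR-107 by about 1.02 and miR-103 by about 0.31 on the log2 scale. The level of miR-107 was -0.023, 0, 0.15 and 0.044 in Diethylhexylphthalate livers, against -1.40, -0.92, -0.89, -0.85 and -0.85 in control livers. The groups did not overlap, the lowest Diethylhexylphthalate sample stood well above the highest control sample, and 1 control sample lay below the other control samples. The value of 0 arose because that probe was itself the array's 75th percentile. The means were 0.042 ± 0.075 (SD, n = 4) with Diethylhexylphthalate and -0.98 ± 0.233 (SD, n = 5) with control diet. The difference of 1.02 ± 0.11 (SE) was a 2.03-fold rise (95% interval 1.74 to 2.37, limma adjusted p = 1.52e-08), and all 4 samples stood above the control mean. Among the 129 miRNAs it had the smallest p, and its rise ranked 2, after that of miR-221. The unscaled signals did not overlap either: the main probe read 654 to 903 in Diethylhexylphthalate livers and 232 to 587 in control livers.

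miR-103 had levels of -1.63, -1.75, -1.56 and -1.71 in Diethylhexylphthalate livers, against -2.07, -2.15, -1.84, -1.92 and -1.87 in control livers. The groups did not overlap, but the gap between them was small beside the spread of the control samples. The means were -1.66 ± 0.082 (SD, n = 4) with Diethylhexylphthalate and -1.97 ± 0.133 (SD, n = 5) with control diet, a 1.24-fold rise (95% interval 1.09 to 1.41; log2 0.31 ± 0.093 SE, limma adjusted p = 0.0239). Both members were thus among the 14.7% of tested miRNAs called with this chemical, where 19 of 129 passed, 14 of them higher. The call of miR-103 was lost, at a log2 difference of like size, when Diethylhexylphthalate replicate 1 (0.30, adjusted p = 0.0770), Diethylhexylphthalate replicate 3 (0.27, adjusted p = 0.0729) or control replicate 2 (0.26, adjusted p = 0.0621) was left out, and with slide as a block (0.31, adjusted p = 0.0704). It was lost at a smaller difference with normexp background (0.12, adjusted p = 0.585, where the median of all tested miRNAs was -0.21), scaling over all probes (0.23, adjusted p = 0.379) and the authors' deposited table (0.23, adjusted p = 0.340). That of miR-107 held with each array left out, at 0.92 to 1.06 and adjusted p of at most 3.59e-07.

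**Figure D1:**
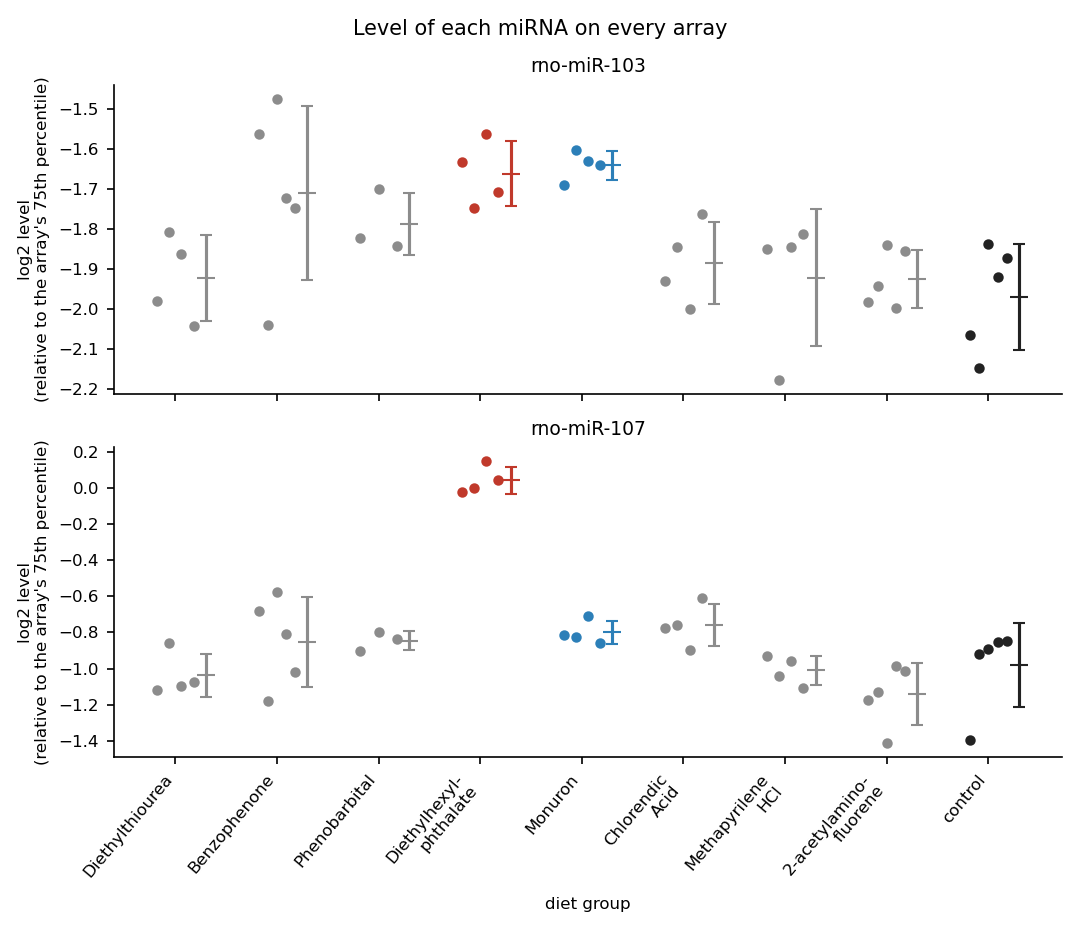
Level of rno-miR-103 (top) and rno-miR-107 (bottom) on every array, as log2 of the signal over the array's 75th percentile, by diet group. Points are arrays, and the bar beside them is the group mean ± SD. The 4 Diethylhexylphthalate arrays of miR-107 lie between -0.023 and 0.15, above the arrays of every other group, while the groups of miR-103 lie close together.

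On the 2 slides that held both groups, the differences for miR-107 were 0.88 (slide 3, 1 Diethylhexylphthalate and 2 control arrays) and 1.44 (slide 4, 1 array of each). For miR-103 they were 0.26 and 0.36 on the same slides. The control array on slide 4 is the one with the low miR-107 level, and without it the fitted difference for miR-107 was 0.92. The number of detected miRNAs overlapped: Diethylhexylphthalate arrays detected 100 to 132 miRNAs and control arrays 100 to 129. Some cell type markers did move with this diet. miR-122, the most abundant hepatocyte miRNA, fell by 0.34 ± 0.10 (adjusted p = 0.0239), and the summed level of the 4 hepatocyte miRNAs was 69.5 to 74.5 with Diethylhexylphthalate and 73.6 to 112 with control. That sum is mostly miR-122. The differences of miR-192, miR-194 and miR-101a were -0.18, -0.030 and -0.32, and none was called (adjusted p = 0.363 to 0.934). miR-451, a red cell miRNA, fell by 0.72 ± 0.24 (adjusted p = 0.0427), with a summed red cell level over 2 miRNAs of 0.512 to 0.828 with Diethylhexylphthalate and 0.837 to 1.15 with control. The second of them, miR-144, was detected on 19 arrays and was not tested, so that sum is mostly miR-451. The leukocyte (3 tested of 4 on the array), mesenchymal (5 of 5) and endothelial (1 of 1) miRNAs had no call. Their summed levels with Diethylhexylphthalate and with control overlapped, at 0.277 to 0.312 and 0.259 to 0.350 for leukocytes, 0.682 to 0.855 and 0.795 to 0.928 for mesenchymal cells, and 1.36 to 1.75 and 1.51 to 1.76 for endothelium. The mesenchymal sum is mostly miR-143, which differed by -0.30 (limma adjusted p = 0.175). The differences of miR-199a-3p, miR-199a-5p, miR-214 and miR-145, which add little to that sum, were 0.16, -0.028, -0.077 and -0.24. The part of miR-122, miR-451 and their cell types in the rise of miR-103 and miR-107 was not tested.

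**Figure D2:**
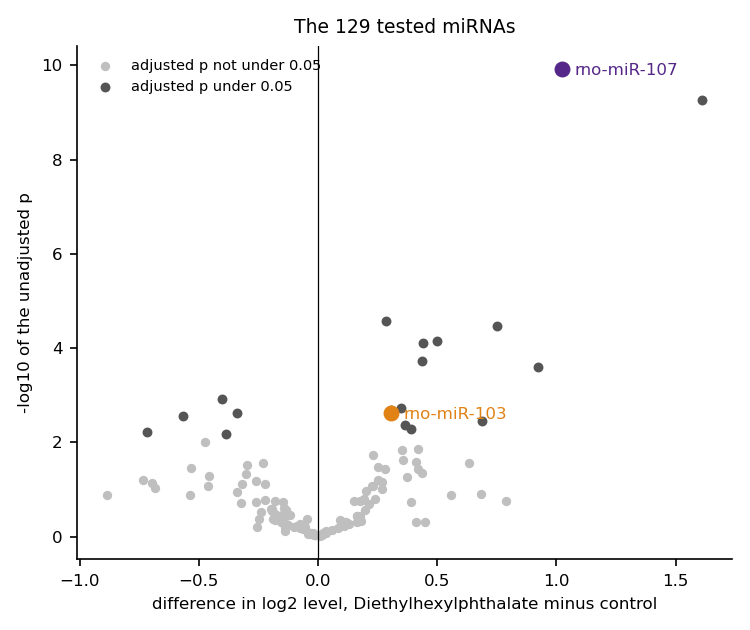
Difference in log2 level, Diethylhexylphthalate minus control (horizontal), and -log10 of the unadjusted limma p (vertical) for the 129 tested miRNAs. Dark points pass an adjusted p of 0.05. rno-miR-107 is at 1.02 and highest of all points, and rno-miR-103 is at 0.31 near the lower edge of the points that pass.

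With Monuron miR-103 rose, and miR-107 did not pass the test. The level of miR-103 was -1.69, -1.60, -1.63 and -1.64 in Monuron livers, against -2.07 to -1.84 in control livers. Every Monuron sample stood above every control sample, and the 4 samples lay close together, at -1.64 ± 0.037 (SD, n = 4). The rise was 1.26-fold (95% interval 1.1 to 1.43; log2 0.33 ± 0.093 SE, limma adjusted p = 0.0323), one of 5 calls among 129 miRNAs (3.88%). The level of miR-107 was -0.81, -0.82, -0.71 and -0.86 in Monuron livers, and 4 of 4 were above the control mean. The groups overlapped at this miRNA, with a difference of 0.18 (95% interval -0.042 to 0.41, adjusted p = 0.421). Without control replicate 1, whose miR-107 level was low, that difference was 0.078. The miR-103 call was lost, at a log2 difference of like size, on leaving out any 1 Monuron array or control replicate 1 or 2 (0.28 to 0.35, adjusted p = 0.0519 to 0.124), in a fit of the 2 groups alone (0.33, adjusted p = 0.0812), and with slide as a block (0.34, adjusted p = 0.176), which compares these groups through the diets they share slides with. It was lost at a smaller difference with normexp background (0.14, adjusted p = 0.877), quantile normalization (0.21, adjusted p = 0.346) and the authors' deposited table (0.20, adjusted p = 0.75), among other settings. These groups shared no slide, so no difference within a slide could be taken, and none of the listed cell type markers was called with Monuron.

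With Benzophenone, miR-103 had the third largest difference, short of the threshold. Its levels were -1.56, -2.04, -1.47, -1.72 and -1.75 in Benzophenone livers, which included both the highest sample of the study and a sample below 3 of the 5 control samples. The difference was 0.26 ± 0.088 SE (1.20-fold, 95% interval 1.06 to 1.36, adjusted p = 0.0669), while 4.65% of miRNAs were called. Without Benzophenone replicate 2, the low sample, it was 0.34 with adjusted p = 0.00580. Leaving out other arrays gave as little as 0.20, and adjusted p of up to 0.234. With slide as a block it was 0.25 (adjusted p = 0.347). Over 14 alternatives it was 0.091 to 0.30 and passed the threshold in 1. Within slide 1, the only slide with both groups, it was 0.32 (1 Benzophenone and 2 control arrays). miR-107 had levels of -0.68, -1.18, -0.57, -0.81 and -1.02 with Benzophenone, with the same sample lowest and the same sample highest, and a difference of 0.13 (95% interval -0.081 to 0.34, adjusted p = 0.707). That difference was 0.026 without control replicate 1, the low control sample of miR-107.

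Phenobarbital, an inducer of drug-metabolizing enzymes through the receptor CAR, gave no call for either member, with 3.88% of miRNAs called. The level of miR-103 was -1.82, -1.70 and -1.84 with Phenobarbital, a difference of 0.18 (95% interval -0.025 to 0.39, adjusted p = 0.529). The level of miR-107 was -0.90, -0.80 and -0.84, a difference of 0.14 (-0.11 to 0.38, adjusted p = 0.691). All 3 samples stood above the control mean for both miRNAs, and the ranges overlapped the control samples at their upper end. The control mean of miR-107 includes the low control replicate 1, without which the difference was 0.033.

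Chlorendic Acid, a flame retardant intermediate, called 29.5% of miRNAs, the largest share against control, and neither member was among them. miR-107 had levels of -0.77, -0.76, -0.89 and -0.61 in Chlorendic Acid livers, the second highest group mean, and a difference of 0.22 (95% interval -0.0021 to 0.45, adjusted p = 0.132). That difference was 0.12 without control replicate 1, the low control sample of miR-107. miR-103 had levels of -1.93, -1.84, -2.0 and -1.76, and a difference of 0.084 (-0.11 to 0.27, adjusted p = 0.499). Here miR-107 had the larger difference of the pair, as with Diethylhexylphthalate, and the intervals of both members overlapped.

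The other 3 chemicals gave differences near 0 for miR-103. Its levels were -1.98, -1.81, -1.86 and -2.04 with Diethylthiourea, -1.85, -2.18, -1.85 and -1.81 with Methapyrilene HCl, and -1.98, -1.94, -1.84, -2.0 and -1.86 with 2-acetylaminofluorene. The differences from control were 0.046, 0.047 and 0.045, and their 95% intervals ran from -0.14 to 0.24, -0.14 to 0.24 and -0.13 to 0.22. The intervals reach up to 1.18-fold, so a small rise of miR-103 was not detectable with these chemicals, nor was it excluded.

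For miR-107 the same 3 diets had negative differences, none called. Its levels were -1.12, -0.86, -1.10 and -1.07 with Diethylthiourea, a thiourea derivative, a difference of -0.055 (95% interval -0.28 to 0.17). They were -0.93, -1.04, -0.96 and -1.11 with Methapyrilene HCl, an antihistamine, a difference of -0.027 (-0.25 to 0.20). They were -1.17, -1.13, -1.41, -0.98 and -1.01 with 2-acetylaminofluorene, an aromatic amine that forms DNA adducts, a difference of -0.16 (-0.37 to 0.052, adjusted p = 0.354). All 5 samples of 2-acetylaminofluorene were below the control mean, but 1 control sample, at -1.40, lay nearly as low as the lowest of them. The shares called were 0.0% with Diethylthiourea (0 of 129 by limma, 8 at an unadjusted p under 0.05), 4.65% with Methapyrilene HCl and 11.6% with 2-acetylaminofluorene. The result for 2-acetylaminofluorene turned on the processing: with the 75th percentile taken over all probes, miR-107 was at -0.53 (adjusted p = 0.0200), where the median of all tested miRNAs itself moved to -0.33, so that miR-107 stood -0.20 from that median. In the authors' deposited table it was also called, at -0.42 (adjusted p = 0.0257), where the median of all tested miRNAs was -0.14.

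**Figure D3:**
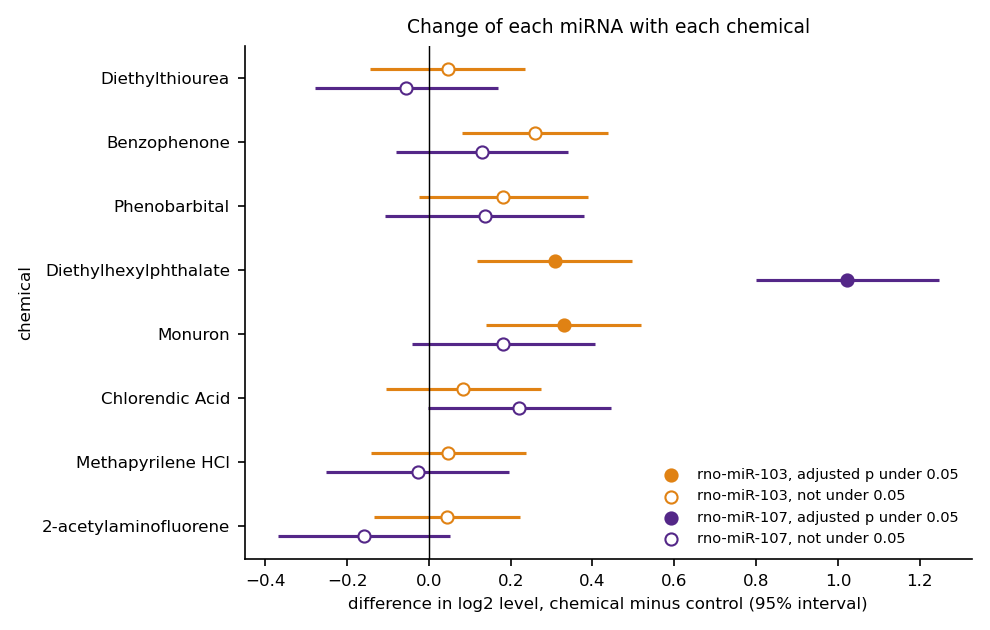
Difference in log2 level from control (horizontal, with 95% interval) for each of the 8 chemicals (vertical), for rno-miR-103 and rno-miR-107. Filled points pass a limma adjusted p of 0.05. The interval of rno-miR-107 with Diethylhexylphthalate, 0.80 to 1.25, lies to the right of all the other intervals.

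Since a call with one chemical and not with another does not show a difference between them, Diethylhexylphthalate was also set against each other chemical. It was chosen for this with its miR-107 call in these data known, and the p-values do not allow for that choice. miR-107 was higher with Diethylhexylphthalate in all 7 comparisons, and its groups overlapped in none. The share of all tested miRNAs without overlap was not counted. The differences were 1.08 against Diethylthiourea (6.98% of miRNAs called), 0.89 against Benzophenone (8.53%), 0.89 against Phenobarbital (7.75%), 0.84 against Monuron (6.98%), 0.80 against Chlorendic Acid (19.4%), 1.05 against Methapyrilene HCl (6.98%) and 1.18 against 2-acetylaminofluorene (33.3%). The limma adjusted p was at most 4.79e-06 in these comparisons, which share the 4 Diethylhexylphthalate samples. Over these 7 and control, the differences within a slide were positive in 15 of 15 cases, from 0.73 to 1.44. These cases reuse the same 4 Diethylhexylphthalate arrays, so they are not independent. For miR-103 such differences were positive in 14 of 15 cases, from -0.048 to 0.62, so the count of signs sets the members little apart. The share of all tested miRNAs with as many positive cases was not counted.

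miR-103 was called in 1 of these 7 comparisons, at 0.26 higher with Diethylhexylphthalate than with 2-acetylaminofluorene (adjusted p = 0.0302), a call lost in 5 of 9 fits with an array left out (0.23 to 0.26 in those 5). It was also lost with slide as a block (0.25, adjusted p = 0.104) and with normexp background (0.12, adjusted p = 0.583). With scaling over all probes the difference was 0.56 (adjusted p = 0.00658), where the median of all tested miRNAs was 0.25. The differences against Diethylthiourea, Chlorendic Acid and Methapyrilene HCl were 0.22 to 0.26 (adjusted p = 0.0725 to 0.110). Against Monuron miR-103 differed by -0.022 (95% interval -0.22 to 0.18), against Benzophenone by 0.048 (-0.14 to 0.24) and against Phenobarbital by 0.13 (-0.090 to 0.34). These intervals bound any difference from those chemicals at about 1.27-fold, with the widest interval for Phenobarbital and its 3 samples.

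Over all 8 chemicals at once, the limma F test called both miRNAs, with adjusted p = 1.15e-08 for miR-107 and 0.0142 for miR-103, where 45.0% of miRNAs were called. The call of miR-103 was lost with slide as a block (adjusted p = 0.0617) and with normexp background (adjusted p = 0.668). In the F test miR-107 ranked 6 and miR-103 ranked 38 of 129. The study's title speaks of carcinogens and non-carcinogens, classes that the labels do not give. The split used here is by liver tumours only and need not match the title's classes. Taking from general knowledge 6 of the chemicals as causing rat liver tumours and Diethylthiourea and Benzophenone as the other 2, the 6 averaged 0.19 ± 0.064 SE above the 2 for miR-107 (adjusted p = 0.0774) and 0.013 ± 0.055 for miR-103 (adjusted p = 0.871), while 6.2% of miRNAs were called. The miR-107 value passed the threshold when Diethylthiourea replicate 2, Benzophenone replicate 1 or 3, or 2-acetylaminofluorene replicate 3 was left out (adjusted p = 0.0223 to 0.0423). It also passed on all arrays with the mean of both probes (0.22, adjusted p = 0.0176), with total gene signal (0.24, adjusted p = 0.00729) and at the second probe (0.24, adjusted p = 0.0142). It is a mean over the 6 chemicals that includes the Diethylhexylphthalate rise of 1.02, beside which the other 5 chemicals were at -0.16 to 0.22 from control.

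Ordered by group mean, miR-107 ran from Diethylhexylphthalate through Chlorendic Acid, Monuron, Phenobarbital, Benzophenone, control, Methapyrilene HCl and Diethylthiourea to 2-acetylaminofluorene. Of the 8 pairs of neighbours in this order, the ranges failed to overlap in 1, Diethylhexylphthalate and Chlorendic Acid, which differed by 0.80 (exact permutation p = 0.0286, the smallest that 4 against 4 allows, and 0.229 adjusted over 8 pairs). For miR-103 the order was Monuron, Diethylhexylphthalate, Benzophenone, Phenobarbital, Chlorendic Acid, Methapyrilene HCl, Diethylthiourea, 2-acetylaminofluorene and control. All neighbours in it overlapped, and the exact permutation p ranged from 0.229 to 1. In both orders neighbours were set by the same means that were then compared, which makes their differences small by construction. These p-values therefore cannot show whether groups farther apart in an order differ, and no conclusion is drawn from them. Control was thus the lowest group for miR-103 and the sixth for miR-107.

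Because the 2 miRNAs are so alike, their difference on each array was compared between diets. The log2 level of miR-107 minus that of miR-103 was 1.61, 1.75, 1.71 and 1.75 with Diethylhexylphthalate, against 0.67, 1.23, 0.95, 1.07 and 1.02 with control diet. All 4 Diethylhexylphthalate values were above all 5 control values. Probes differ in brightness, so only the shift between diets is read from this, not which miRNA was the more abundant. The shift was 0.72 (exact permutation p = 0.0159, the smallest that 4 against 5 allows, and 0.127 adjusted over the 8 chemicals, where the design cannot pass 0.05 with 1 chemical shifted). Fitted as a further row in limma, a choice made after the data were seen, the shift was 0.72 ± 0.097 SE, or 1.64-fold (95% interval 1.43 to 1.88, adjusted p = 1.01e-06). So the rise of miR-107 with Diethylhexylphthalate exceeded that of miR-103 by more than the spread between samples. With the other 7 chemicals the shift was -0.20 to 0.14 (exact permutation adjusted p of at least 0.394). It was -0.15 with Monuron, where the larger difference was that of miR-103.

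**Figure D4:**
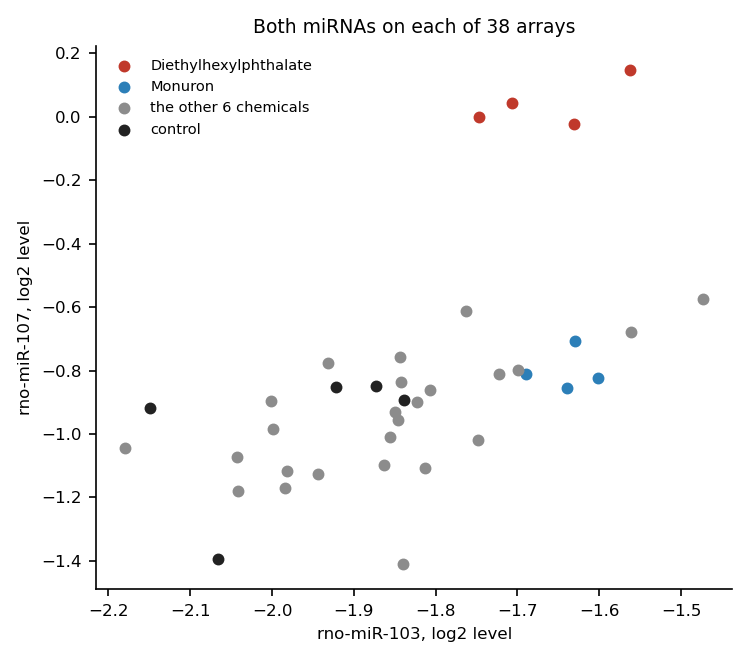
Log2 level of rno-miR-103 (horizontal) and rno-miR-107 (vertical) on each of 38 arrays, with the Diethylhexylphthalate, Monuron, other chemical and control arrays in different colours. The 4 Diethylhexylphthalate arrays lie above all others on the vertical axis, while on the horizontal axis they lie between -1.75 and -1.56, a range that includes the 4 Monuron arrays.

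Within diets, samples high for one miRNA tended to be high for the other. After group means were removed, the levels correlated over 38 arrays with Pearson's r = 0.562 (permutation p = 0.00479) and Spearman's rho = 0.538 (permutation p = 0.00301). Without the 2 arrays farthest from the median of miR-103, r was 0.490 (permutation p = 0.0180). Within slides r was 0.898 (slide 1, 6 arrays), 0.715 (slide 4, 7 arrays), -0.169 (slide 5, 8 arrays) and 0.953 (slide 6, 7 arrays), and slides 2 and 3 held 5 arrays each, too few for a value. On slide 5 the value was thus negative. With 8 arrays it is imprecise, and no test compared the slides. Both values of an array share its RNA, scaling and hybridization. miR-103 correlated more highly with 11 other miRNAs (highest r = 0.708, miR-26a) and miR-107 with 28 others (highest r = 0.833, miR-27b), where the median r with the 128 others was 0.315 and 0.319.

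The second probe of miR-107, A_26_P00001309, gave the same picture. Its level was -0.53, -0.49, -0.43 and -0.52 with Diethylhexylphthalate, against -2.12, -1.46, -1.61, -1.54 and -1.53 with control diet. The groups stood apart by a wide gap, with a difference of 1.16 ± 0.11 SE (2.24-fold, 95% interval 1.92 to 2.61, limma adjusted p = 8.99e-10 over 229 probes). The second probe of miR-103, A_26_P00001305, is the dimmest of the 4, with mean signals of 67.3 to 192. Its level was -2.38, -2.61, -2.41 and -2.56 with Diethylhexylphthalate, against -2.97, -2.53, -2.60, -2.69 and -2.70 with control diet, and here the groups overlapped. The difference was 0.21 ± 0.094 SE (1.16-fold, 95% interval 1.01 to 1.32, adjusted p = 0.153). With Monuron it read -2.50, -2.35, -2.46 and -2.37, above every control value, a difference of 0.28 ± 0.094 SE (adjusted p = 0.120). The 2 probes of miR-103 thus gave the same direction with both chemicals, and the brighter of them passed the threshold.

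**Figure D5:**
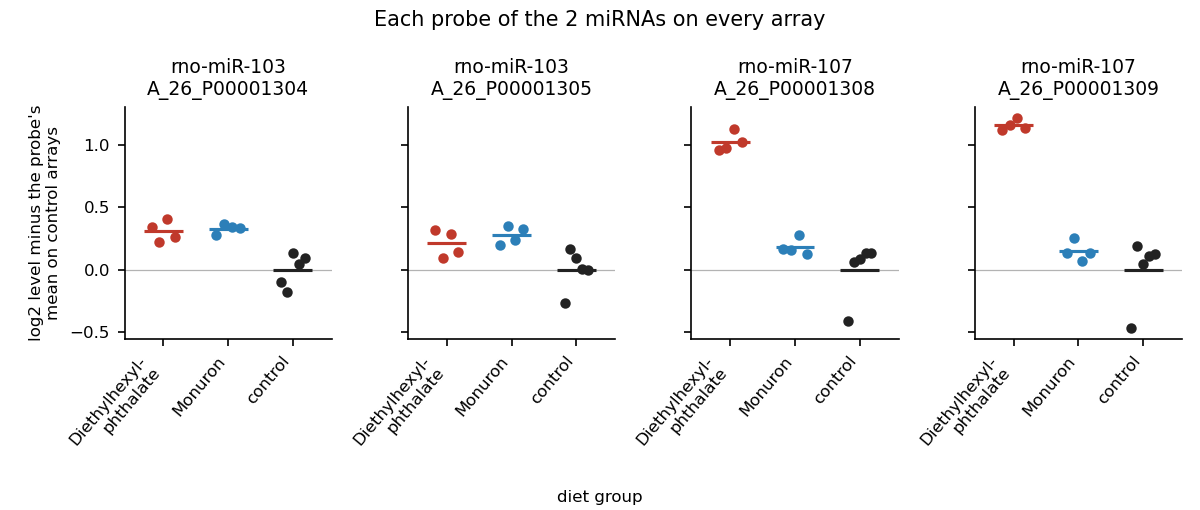
Log2 level of each of the 4 probes minus that probe's mean on control arrays, for Diethylhexylphthalate, Monuron and control arrays. Points are arrays and lines are group means. Both probes of rno-miR-107 show the Diethylhexylphthalate arrays near 1, and the probes of rno-miR-103 show the Diethylhexylphthalate and Monuron arrays at like height, between 0.21 and 0.33 on average.

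On cross-hybridization, the values that bear on it are these. In Diethylhexylphthalate livers the miR-107 probes rose by 1.02 and 1.16, and the miR-103 probes differed from control by 0.31 and 0.21. In Monuron livers the miR-103 probes differed by 0.33 and 0.28, beside a Diethylhexylphthalate minus Monuron difference of -0.022 at the main probe, while the miR-107 probes differed by 0.18 and 0.15. The probes of 1 miRNA also varied together within diets, with r = 0.591 for the pair of miR-103 and r = 0.816 for the pair of miR-107 over 38 arrays. Between probes of different miRNAs r was 0.356 to 0.706, so a probe was not always closest to its own partner. The share of each signal that came from the other miRNA was not tested.

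By Pearson's r over the 9 group means, which share their control samples, arrays and scaling, the miRNAs most like miR-107 were miR-185 (0.895), let-7b (0.809), miR-221 (0.781), miR-152 (0.770) and miR-378* (0.742). Of these, miR-185, miR-221 and miR-152 were themselves called with Diethylhexylphthalate, at 0.29, 1.61 and 0.35, where 14.7% of all 129 were called. Both lists of this paragraph were picked by group means that include the Diethylhexylphthalate group, so calls with that chemical are no separate result. The likeness of miR-185, let-7b and miR-221 rested largely on that 1 group, since without it r over the remaining 8 group means was 0.521 for miR-185, 0.201 for let-7b and 0.0884 for miR-221, and it was 0.626 for miR-152 and 0.749 for miR-378*. The miRNAs most like miR-103 were miR-30e* (0.726), miR-107 (0.656), miR-361 (0.651), miR-352 (0.651) and miR-29a (0.646), of which miR-107 and miR-29a (0.44 higher) were called with Diethylhexylphthalate. Without the Diethylhexylphthalate group r was 0.771, 0.658, 0.626, 0.567 and 0.491 for these. miR-103 ranked 15 among the miRNAs like miR-107.

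The miR-15 and miR-16 group has the letters AGCAGC within its first 8 bases, as miR-103 and miR-107 do, but set 1 base later along the seed. Those letters occur there in 8 of 693 mature rat miRNAs in the RefSeq table. Mature miR-16 and miR-195 are shown for comparison, with bases 2 to 8 in capitals.
rno-miR-16-5p: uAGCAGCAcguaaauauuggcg
rno-miR-195-5p: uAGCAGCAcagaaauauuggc
Of 8 listed members of this group, 6 were on the array and 5 were tested. With Diethylhexylphthalate 0 of 5 rose and 1 fell, miR-195, by 0.39 ± 0.13 (adjusted p = 0.0449), where 14.7% of all 129 were called, and the median difference was -0.14, against 0.0094 over all 129. With Monuron 0 of 5 were called in either direction (3.88% of all 129), with a median of 0.045 against 0.061. With Chlorendic Acid miR-15b rose by 0.32 (adjusted p = 0.0432) and miR-497 fell by 0.73 (adjusted p = 0.000718), 2 of 5 where 29.5% of all 129 were called. With the other 5 chemicals 0 of 5 were called, where 0.0% to 11.6% of all 129 were. With 5 members these counts are near the shares over all miRNAs and show nothing particular to the group.

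Of 4 miRNAs listed for their known part in lipid metabolism, miR-33 and miR-370 were detected on 0 arrays. miR-378, which lies in an intron of Ppargc1b, differed by 0.034 with Diethylhexylphthalate (adjusted p = 0.927), and miR-122 fell, as given above. With the other 7 chemicals 0 of these 2 tested miRNAs were called, where 0.0% to 29.5% of all 129 were, and 2 members are too few to read a count of 0 against those shares. Each of these miRNAs was tested against control, and none of their changes was tested against that of miR-107.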

How the data were processed

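Liver RNA of 38 samples was read on 1-colour Agilent miRNA arrays, and per the file headers the deposited spot intensities were extracted with Feature Extraction 10.5.1.1, which subtracts background within an array and does not scale between arrays. The authors also deposited log2 values for 167 miRNAs, whose making no label or header records. Of 6293 of these, 99.4% lay within 0.01 of the log2 total gene signal minus 1 constant per array, and column medians were 0.0162 to 0.337. They were used as an alternative. Their direction and scale were settled by that match, and the reason for the constants was not.

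Processed signals were averaged over spots not marked as outliers, divided by the 75th percentile of the 137 probes detected on all arrays (over 50% of spots well above background), floored at the 5th percentile of detected values (log2 -5.50) and taken to log2. A miRNA was represented by its brightest probe, and 129 miRNAs were tested with limma 3.58.1 in R 4.3.3 on all groups together, with Benjamini-Hochberg adjustment at 0.05. Exact permutation tests used scipy 1.17.1 and were two-sided. The fits were tested on simulated data. The number of arrays per group limits the precision.

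The members and the marker, seed and lipid lists were chosen with earlier results of these data known. Named miRNAs were the members, the 5 miRNAs with group means most like each, the lists, and any singled out after their values were seen (miR-26a, miR-27b). Same-numbered replicates did not deviate together (15 of 33 pairs with r above 0.1, from -0.392 to 0.487), so samples were not paired. Alternatives covered scaling, background, normalization, probe choice, filter, floor, slide and replicate blocks, and left-out arrays.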

Additional observations from a re-analysis of the deposited data

Results flagged for a closer look

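In the Methapyrilene HCl group, replicate 2 had a miR-103 level of -2.18, below the other 3 samples, which lay between -1.85 and -1.81. In the control group, replicate 1 had a miR-107 level of -1.40, below the other 4 samples, which lay between -0.92 and -0.85. Each stood apart from its group by more than Dixon's test allows at the 95% level, which chance alone reaches in about 1 in 20 groups. The rule was applied to both miRNAs in every group except Phenobarbital, so a flag by chance is not unlikely. Without control replicate 1 the Diethylhexylphthalate difference of miR-107 was 0.92, against 1.02 with it. The same omission lowered the miR-107 differences of the other chemicals. They were then 0.033 with Phenobarbital, 0.026 with Benzophenone, 0.078 with Monuron and 0.12 with Chlorendic Acid. With Diethylthiourea, Methapyrilene HCl and 2-acetylaminofluorene they were -0.16, -0.13 and -0.26.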

How the results depend on the processing

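The Diethylhexylphthalate rise of miR-107 passed the threshold in 14 of 14 alternatives, at 0.86 to 1.16, and with each array left out. That of miR-103 passed in 9 of 14, at 0.12 to 0.32, and its rise with Monuron in 5 of 14, at 0.14 to 0.34. Some settings moved the median of all tested miRNAs by over 0.1, and above that median the values were 0.24 to 0.33 for miR-103 with Diethylhexylphthalate and 0.19 to 0.32 with Monuron. For calls lost in an alternative the cause was not tested.

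Values are log2 differences from control unless a second chemical is named. Scaling over all probes gave miR-103 -0.18 with Diethylthiourea, 0.23 with Diethylhexylphthalate, 0.25 with Monuron, -0.059 with Methapyrilene HCl and -0.33 with 2-acetylaminofluorene, and miR-107 -0.0077 with Phenobarbital and -0.53 with 2-acetylaminofluorene. Normexp background gave miR-103 0.12 with Diethylhexylphthalate, 0.14 with Monuron, -0.096 with Chlorendic Acid, -0.084 with Methapyrilene HCl, -0.0045 with 2-acetylaminofluorene, -0.026 for Diethylhexylphthalate against Phenobarbital, 0.12 against 2-acetylaminofluorene, -0.024 for the 6 tumour-causing chemicals against 2 and an F test adjusted p of 0.668, and a shift of miR-107 over miR-103 of 0.023 with Methapyrilene HCl. Quantile normalization gave miR-103 -0.064 with Diethylthiourea, 0.30 with Benzophenone, 0.21 with Monuron, -0.022 with 2-acetylaminofluorene, and for Diethylhexylphthalate 0.36 against Diethylthiourea, -0.0091 against Benzophenone and 0.086 against Monuron.

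The mean of both probes gave 0.011 for miR-107 with Methapyrilene HCl, 0.25 for miR-103 with Diethylhexylphthalate against Chlorendic Acid and 0.22 for miR-107 over the 6 against 2, which then passed the threshold. Total gene signal gave miR-103 -0.029 with Diethylthiourea, 0.23 with Monuron, -0.054 with 2-acetylaminofluorene, and for Diethylhexylphthalate 0.30 against Diethylthiourea, 0.042 against Monuron and 0.23 against Chlorendic Acid, and miR-107 0.047 with Methapyrilene HCl and 0.24 over the 6 against 2, past the threshold. The authors' deposited table gave miR-103 -0.060 with Diethylthiourea, -0.051 with Phenobarbital, 0.23 with Diethylhexylphthalate, 0.20 with Monuron, -0.018 with Chlorendic Acid, -0.16 with Methapyrilene HCl, -0.24 with 2-acetylaminofluorene, 0.022 for Diethylhexylphthalate against Monuron and -0.088 over the 6 against 2, and miR-107 -0.091 with Phenobarbital and -0.42 with 2-acetylaminofluorene. As with scaling over all probes, miR-107 with 2-acetylaminofluorene passed the threshold in the authors' values (adjusted p = 0.0257). With only miRNAs detected on all arrays, miR-103 was at 0.33 with Monuron (adjusted p = 0.0544). Fits of 2 groups alone gave miR-103 0.33 with Monuron (adjusted p = 0.0812) and 0.26 with Diethylhexylphthalate against Diethylthiourea (adjusted p = 0.0436).

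The dimmer probe of miR-103 gave -0.0089 with Diethylthiourea, 0.21 with Diethylhexylphthalate, 0.28 with Monuron, -0.066 with Chlorendic Acid, and for Diethylhexylphthalate -0.0058 against Benzophenone, 0.28 against Chlorendic Acid and 0.21 against 2-acetylaminofluorene. The dimmer probe of miR-107 gave 0.049 with Methapyrilene HCl and 0.24 over the 6 against 2, past the threshold. With slide as a block, miR-103 was at 0.31 with Diethylhexylphthalate, 0.34 with Monuron, 0.25 for Diethylhexylphthalate against 2-acetylaminofluorene and an F test adjusted p of 0.0617, and miR-107 at 0.025 with Diethylthiourea and 0.10 with Methapyrilene HCl. Within slide 1, miR-103 was at -0.10 with Diethylthiourea and -0.052 with Chlorendic Acid, and miR-107 at -0.25 with Diethylthiourea and -0.028 with Phenobarbital. Within slide 4, miR-107 was at 0.43 with Diethylthiourea, 0.56 with Phenobarbital, 1.44 with Diethylhexylphthalate and 0.71 with Chlorendic Acid, where miR-103 was at 0.26. Within slide 3, miR-103 was at 0.31 with Phenobarbital and -0.048 for Diethylhexylphthalate against it, and miR-107 at 0.98 for Diethylhexylphthalate against 2-acetylaminofluorene. Within slide 2, Diethylhexylphthalate against Methapyrilene HCl was at 0.62 for miR-103. The pair shift with Diethylhexylphthalate was 0.72 in the exact test and in limma, an added choice.

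With arrays left out in turn, miR-103 ranged from 0.20 to 0.34 with Benzophenone, 0.26 to 0.34 with Diethylhexylphthalate, 0.28 to 0.36 with Monuron and -0.029 to 0.042 over the 6 against 2. For Diethylhexylphthalate it ranged from 0.23 to 0.29 against 2-acetylaminofluorene, -0.035 to 0.11 against Benzophenone and -0.055 to 0.0064 against Monuron. miR-107 ranged from -0.13 to 0.0055 with Methapyrilene HCl and 0.15 to 0.23 over the 6 against 2, and the pair shift with Phenobarbital from -0.12 to 0.015. The replicate block left every call of the members in place, with 1.03 for miR-107 (adjusted p = 1.74e-07) and 0.32 for miR-103 with Diethylhexylphthalate (adjusted p = 0.0263) and 0.34 for miR-103 with Monuron (adjusted p = 0.0323).

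Counts of called miRNAs, given as the number in the main analysis with the lowest and highest over the alternatives, were 19 (2 to 20) with Diethylhexylphthalate, 5 (1 to 6) with Monuron, 38 (7 to 46) with Chlorendic Acid, 6 (0 to 12) with Methapyrilene HCl, 15 (3 to 53) with 2-acetylaminofluorene, 6 (0 to 9) with Benzophenone and 5 (0 to 6) with Phenobarbital. For Diethylhexylphthalate they were 9 (2 to 16) against Diethylthiourea, 11 (5 to 11) against Benzophenone, 10 (1 to 16) against Phenobarbital, 9 (1 to 10) against Monuron, 25 (8 to 34) against Chlorendic Acid, 9 (2 to 23) against Methapyrilene HCl and 43 (10 to 45) against 2-acetylaminofluorene. They were 8 (1 to 14) for the 6 against 2 and 58 (8 to 73) in the F test. The dimmer miR-103 probe read 67.3 to 192 signal units over the arrays, where the floor was 16.7 on the median array.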
